A study of Cucumis melo with 24 samples.

Results

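Genes described as proteins of the phloem sap were followed through melon fruit development: MELO3C027112.2 and MELO3C018681.2, both described as Protein PHLOEM PROTEIN 2-LIKE A1, and MELO3C021760.2, described as Phloem lectin. These 3 genes, of 29980 listed, were taken by identifier and chosen by their TPM levels over the 4 ages and 2 genotypes, so their own values are given as a description with no test. RNA came from the fruit flesh of melon (Cucumis melo L.), either wild type (WT) or cmnac-nor mutant, harvested at 15, 25, 35 and 45 days after pollination (DAP). Each of the 8 groups of genotype and age had 3 libraries, which makes 24, and no treatment is named for any group. The labels name neither the allele of the mutant, nor the cultivar, nor whether replicate libraries stem from different fruits or plants. The p-values below therefore cover just the spread among these libraries, part of which may be technical.

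Phloem protein 2 (PP2) is an abundant soluble protein of cucurbit phloem sap. It is a lectin that binds chitin-type sugar chains, is made in companion cells and passes through plasmodesmata into the sieve elements, the conducting cells that have lost their nuclei. There it is found with the filament-forming phloem protein 1, and both gather at sieve plates when the phloem is wounded. The family of PP2-like genes is large, and many relatives outside cucurbits, including F-box proteins with a PP2 domain, are expressed in other tissues. The names A1, A9, A10 and A13 are those of Arabidopsis genes, and the roles of the melon copies are not taken as known from them.

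Levels are in TPM, the usual unit of transcript abundance, which is scaled by transcript length and set relative to the rest of the library, and n = 3 libraries for each group mean ± SD. Differences are mutant minus WT on the log2(TPM + 1) scale with their standard error (SE), and this scale understates differences that involve levels near 0. Depth is unknown, since TPM hold no read numbers. The libraries summed to between 927159 and 963192 TPM and held 13820 to 16044 genes at 1 TPM or more. Transcript of CmNAC-NOR, MELO3C016540.2, the NAC transcription factor gene the line is named for, stood between 430 and 1463 TPM in WT libraries. In mutant libraries it stood between 24.6 and 320 TPM at 15 DAP and between 1808 and 1920 TPM at 45 DAP, so its level is no check of the genotype labels. Of the markers of other tissues, seed-type genes, the most abundant being a late embryogenesis abundant gene, were at 0 in all libraries of a group for 46 to 61 of the 118. Their sum was 7054 to 8256 TPM in WT and 6501 to 8874 TPM in the mutant at 15 DAP. Later the mutant libraries lay above those of WT with no overlap, at 4682 to 5846 against 1128 to 1592 TPM at 25 DAP, 3332 to 4446 against 1084 to 1658 TPM at 35 DAP, and 3832 to 5578 against 1557 to 1780 TPM at 45 DAP. Much of this gap lay in the late embryogenesis abundant gene, MELO3C015995.2. Its means were 3843 against 700 TPM, 2745 against 256 TPM and 3447 against 355 TPM at these ages. Of the seed-type genes, 57 had 1 TPM or more in 3 or more libraries. Their median log2 difference was 0.83, 0.005 and 0.09, beside 0.44, 0.27 and 0.22 over all such genes. Cuticle genes, 7 in number, summed to 11.8 to 85.7 TPM over all libraries. The part of these tissues in the results was not tested.

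MELO3C027112.2 was the member with the steadiest level in the mutant. In WT its 3 libraries held 665, 590 and 565 TPM at 15 DAP, 119, 92.9 and 103 TPM at 25 DAP, 2.99, 0.49 and 3.64 TPM at 35 DAP, and 0, 0.12 and 0.09 TPM at 45 DAP. Each WT age lay below the one before with no overlap between libraries. In the mutant the libraries held 338, 411 and 405 TPM at 15 DAP, 410, 181 and 452 TPM at 25 DAP, 415, 403 and 474 TPM at 35 DAP, and 458, 639 and 557 TPM at 45 DAP. Neighbouring ages of the mutant overlapped, and their means stayed between 348 and 551 TPM. Mutant libraries at 45 DAP nevertheless lay above those at 15 and 25 DAP with no overlap. The log2 difference was 0.51 (SE 0.17) from 15 DAP and 0.76 (SE 0.44) from 25 DAP. Ordered by mean, WT at 15 DAP came first with 607 ± 52.0 TPM, and the 4 mutant groups followed, each overlapping the next. WT at 25 DAP came next with 105 ± 13.0 TPM and stood apart from every mutant group.

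The mutant lay below WT for MELO3C027112.2 at 15 DAP, by a log2 difference of -0.66 (SE 0.11), with no overlap. It lay above WT at the later ages, with differences of 1.62 (SE 0.43) at 25 DAP, 7.16 (SE 0.52) at 35 DAP and 9.00 (SE 0.15) at 45 DAP, again with no overlap. The difference at 45 DAP turns on WT values at or near 0 and depends on the constant added before the logarithm. Among genes ranked by level within a library, this gene held places 146 to 207 in WT at 15 DAP and places 153 to 260 in the mutant at 45 DAP.

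MELO3C018681.2 had the highest single value of the members and a low point in the mutant at 35 DAP. In WT it was at 1663, 734 and 823 TPM at 15 DAP, 35.3, 29.8 and 41.6 TPM at 25 DAP, 2.51, 0.98 and 2.28 TPM at 35 DAP, and 0, 0.08 and 0 TPM at 45 DAP. WT ages did not overlap one another. In the mutant it was at 1724, 3814 and 2438 TPM at 15 DAP, 462, 480 and 684 TPM at 25 DAP, 68.1, 245 and 110 TPM at 35 DAP, and 1004, 887 and 1044 TPM at 45 DAP. Mutant libraries of neighbouring ages did not overlap either, and those at 45 DAP lay within the range of WT at 15 DAP. In the order of means, mutant at 15 DAP led with 2659 ± 1062 TPM, and only WT at 15 DAP (1073 ± 513 TPM) and mutant at 45 DAP (978 ± 81.9 TPM) were neighbours that overlapped.

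All 3 mutant libraries of MELO3C018681.2 lay above all 3 WT libraries at every age. The log2 difference was 1.33 (SE 0.50) at 15 DAP, 3.88 (SE 0.23) at 25 DAP, 5.44 (SE 0.59) at 35 DAP and 9.90 (SE 0.08) at 45 DAP. At 15 DAP the separation was narrow, since the lowest mutant library stood at 1724 TPM and the highest WT library at 1663 TPM. In mutant libraries at 15 DAP the gene held places 16 to 30 among all genes listed.

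MELO3C021760.2, the phloem lectin, followed MELO3C018681.2 closely in the mutant but not at 15 DAP. In WT its libraries held 3210, 1179 and 1599 TPM at 15 DAP, 74.7, 36.2 and 75.2 TPM at 25 DAP, 18.9, 4.88 and 22.7 TPM at 35 DAP, and 0.93, 0.38 and 0.60 TPM at 45 DAP. Each WT age lay below the one before with no overlap. In the mutant they held 590, 2302 and 1857 TPM at 15 DAP, 623, 666 and 861 TPM at 25 DAP, 82.6, 292 and 157 TPM at 35 DAP, and 967, 714 and 930 TPM at 45 DAP. The 35 DAP libraries lay below those of both neighbouring ages, while the other mutant ages overlapped. By mean, WT at 15 DAP (1996 ± 1072 TPM) and mutant at 15 DAP (1583 ± 888 TPM) came first and overlapped, and mutant at 45 DAP (870 ± 137 TPM) and 25 DAP (717 ± 127 TPM) overlapped as well.

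At 15 DAP the lectin did not separate the genotypes: the log2 difference was -0.42 (SE 0.74), and it turned to 0.18 without replicate 1 of the mutant, the library at 590 TPM. The difference was 3.57 (SE 0.37) at 25 DAP, 3.48 (SE 0.82) at 35 DAP and 9.06 (SE 0.20) at 45 DAP, with every mutant library above every WT library. In WT the lectin was the member with the highest level left at 35 and 45 DAP, although under 1 TPM at 45 DAP.

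**Figure D1:**
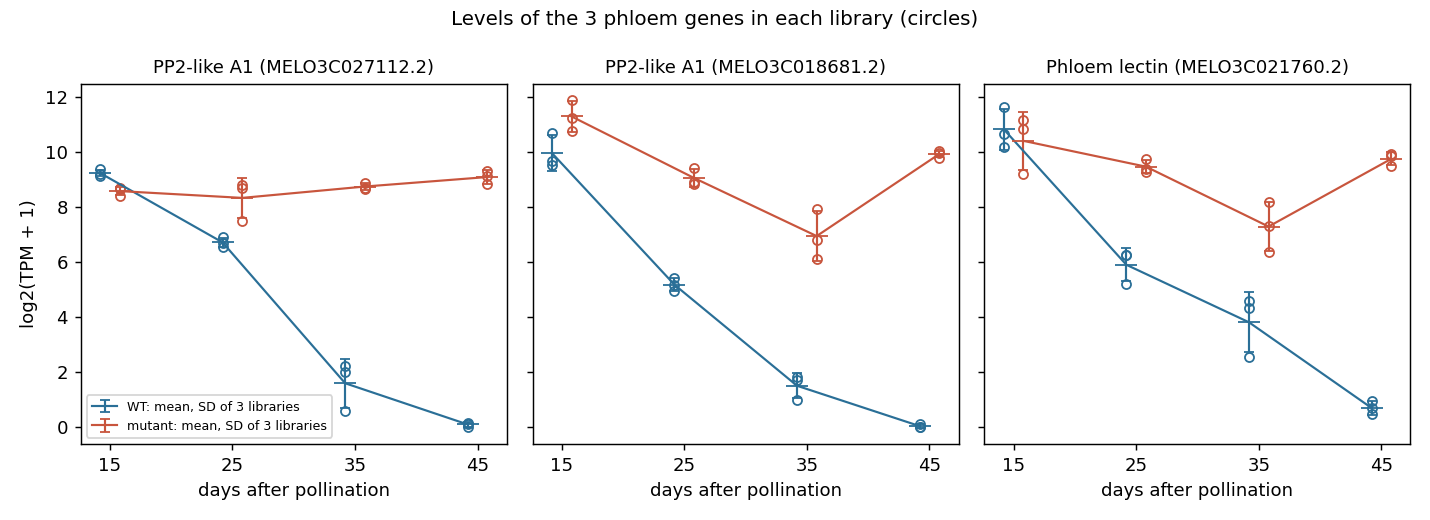
Levels of the 3 phloem genes as log2(TPM + 1) against days after pollination, with WT in blue and mutant in red; circles are libraries, and lines join group means with the SD of 3 libraries. WT levels are near 0 at 45 DAP for all 3 genes. In the mutant MELO3C027112.2 changes least with age, and the others have a low point at 35 DAP.

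Read over the whole table, separation of libraries was common. Mutant libraries all lay above WT libraries for 15.1% of the 17658 genes tested at 15 DAP and all below for 11.4%, and 1 member was in each class. All above held for 54.1% of genes at 25 DAP, 43.1% at 35 DAP and 44.4% at 45 DAP, and for 3 of 3 members at each of these ages. Between WT ages, libraries lay below the earlier age without overlap for 48.7% of genes from 15 to 25 DAP, 19% from 25 to 35 DAP and 17.8% from 35 to 45 DAP, and for 3 of 3 members each time. In the mutant, all libraries lay lower for 13.4% of genes from 15 to 25 DAP, with 1 of 3 members among them, and for 20.4% from 25 to 35 DAP, with 2 of 3 members. From 35 to 45 DAP all lay higher for 21.7% of genes, again with 2 of 3 members. The members were chosen for these levels, so nothing is read from these counts.

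The 3 genes shared the direction of the contrast between genotypes from 25 DAP on, but not at 15 DAP, and they differed in the finer pattern. Over the 24 libraries, Pearson's r of log2(TPM + 1) was 0.978 between MELO3C018681.2 and the lectin, 0.935 between MELO3C018681.2 and MELO3C027112.2, and 0.927 between MELO3C027112.2 and the lectin. These points share their libraries and the contrast between groups. When each library was set against the mean of its own group, r was 0.880 for MELO3C018681.2 with the lectin, 0.366 for both PP2-like A1 genes with each other and 0.518 for MELO3C027112.2 with the lectin. With any 1 group left out the second of these ran from 0.212 to 0.517. The last was 0.219 without the WT libraries of 35 DAP. Of both PP2-like A1 genes, MELO3C018681.2 had the higher correlation with the lectin on either measure.

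In the mutant, ratios of TPM within a library showed the same division. In mutant libraries at 25 and 35 DAP the level of MELO3C018681.2 was 0.70 to 0.84 times that of the lectin, while both levels differed several-fold between these ages. At 45 DAP the ratio was 1.04 to 1.24, and at 15 DAP it was 1.31 to 2.92. In WT it was 0.51 to 0.62 at 15 DAP and 0.10 to 0.20 at 35 DAP. WT libraries of 25 DAP gave ratios from 0.47 to 0.82. The ratio of MELO3C027112.2 to MELO3C018681.2 in the mutant ranged from 0.11 to 0.20 at 15 DAP and from 0.38 to 0.89 at 25 DAP. At 35 DAP it was above 1 in every library, from 1.65 to 6.10, and at 45 DAP it lay between 0.46 and 0.72. Reads of near-identical copies can be split between family members by the counting, and how the authors treated them is not given in the sources used here, so these ratios are uncertain to that extent.

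**Figure D2:**
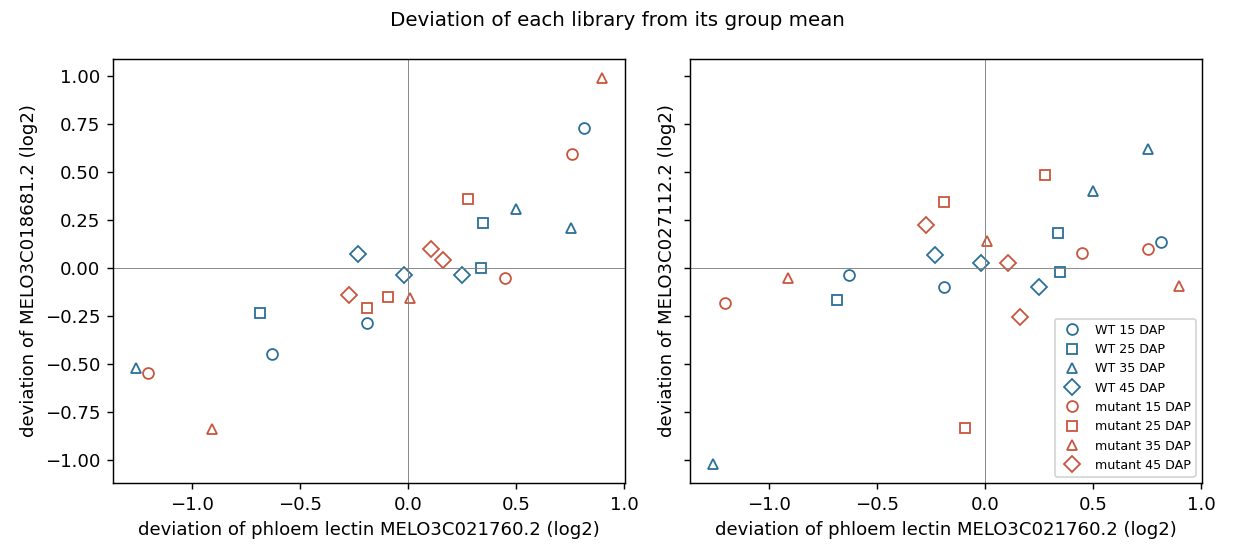
Deviation of each library from the mean of its group in log2(TPM + 1), for MELO3C018681.2 (left) and MELO3C027112.2 (right) against the phloem lectin; symbols give the age, blue is WT and red is mutant. The left points lie along a line (r = 0.880), the right points are scattered (r = 0.518).

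Genes outside the set with the most similar profile differed between the members. For MELO3C027112.2 the 5 highest correlations over the 24 libraries lay between 0.989 and 0.995. They belonged to MELO3C020398.2 and MELO3C010210.2, both listed as Unknown protein, MELO3C010875.2 (Calcium-binding EF-hand), MELO3C020120.2 (the remaining gene described as PHLOEM PROTEIN 2-LIKE A1) and MELO3C004225.2 (a heavy metal-associated isoprenylated plant protein). MELO3C020398.2 also had the highest correlation of deviations, 0.915, followed by MELO3C010874.2 (calcium-binding protein-like, 0.895) and MELO3C026077.2 (leucine-rich repeat extensin-like, 0.877). The last of these had an r of only -0.12 over the libraries. MELO3C010875.2 was far more abundant than the member, with a mean of 8482 TPM in WT at 15 DAP, 7.53 TPM in WT at 45 DAP and 4629 to 6955 TPM in the mutant groups.

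For MELO3C018681.2 and the lectin, cysteine proteinase inhibitors were among the most similar genes. These proteins block papain-type proteases, and cystatin-like repeats also make up the cucurbit filament protein. MELO3C012701.2 correlated at 0.983 with MELO3C018681.2 and at 0.985 with the lectin over the libraries, and at 0.893 and 0.959 in deviations. MELO3C021766.2, a second inhibitor, was among the 5 most similar genes of both, and MELO3C012702.2, also an inhibitor, among those of the lectin, with an r of 0.982. The others for MELO3C018681.2 were MELO3C032975.2 (Receptor-like protein kinase), MELO3C012371.2 (GABA transporter 1) and the 26 kDa phloem lectin MELO3C002874.2, with r from 0.974 to 0.975. The others for the lectin were MELO3C033305.2 (Unknown protein, 0.985) and MELO3C014991.2 (MLP-like protein 28, 0.979). In deviations MELO3C022727.2 (GEM-like protein 1) was first for MELO3C018681.2 with 0.905. Over all genes tested the median r with each member lay between 0.240 and 0.267, and 236 to 394 of 17655 genes exceeded 0.9.

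Other phloem-named genes were gathered from words in the descriptions, which gave 31 besides the members: 16 of the PP2 family, 5 phloem lectins and 10 sieve element occlusion genes. The last encode the filament proteins of sieve elements best known as forisomes of legumes. Of the 31, 26 passed the filter of 1 TPM or more in 3 or more libraries and were tested with limma at a Benjamini-Hochberg adjusted p under 0.05. At 15 DAP 1 was higher in the mutant and 3 were lower, against 10.3% and 7.99% of all genes. In the mutant 18 were higher and 1 lower at 25 DAP (48.6% and 18.3% of all genes), 19 higher and 2 lower at 35 DAP (41.2% and 23.2%), and 13, all of them higher, at 45 DAP (38.5%, with 22% lower). Their median log2 difference was -0.37, 1.77, 1.55 and 1.19 in order of age, beside 0.03, 0.44, 0.27 and 0.22 over all genes tested.

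The medians over all genes depend on scaling. After median-of-ratios scaling they were 0.01, 0.08, 0.07 and 0.04, and those of the phloem-named genes -0.40, 1.45, 1.43 and 1.01. The split of calls over all genes moved with it, from 8588 higher and 3227 lower to 6194 and 5414 at 25 DAP, from 7270 and 4100 to 6105 and 5452 at 35 DAP, and from 6793 and 3884 to 5716 and 5280 at 45 DAP. After quantile normalization the split was 5322 and 5639, 5338 and 6003, and 4749 and 5958 at these ages. With the model fitted to the 6 libraries of an age alone, 11 phloem-named genes were higher and 2 lower at 35 DAP, and at 15 DAP a single lower gene was called.

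**Figure D3:**
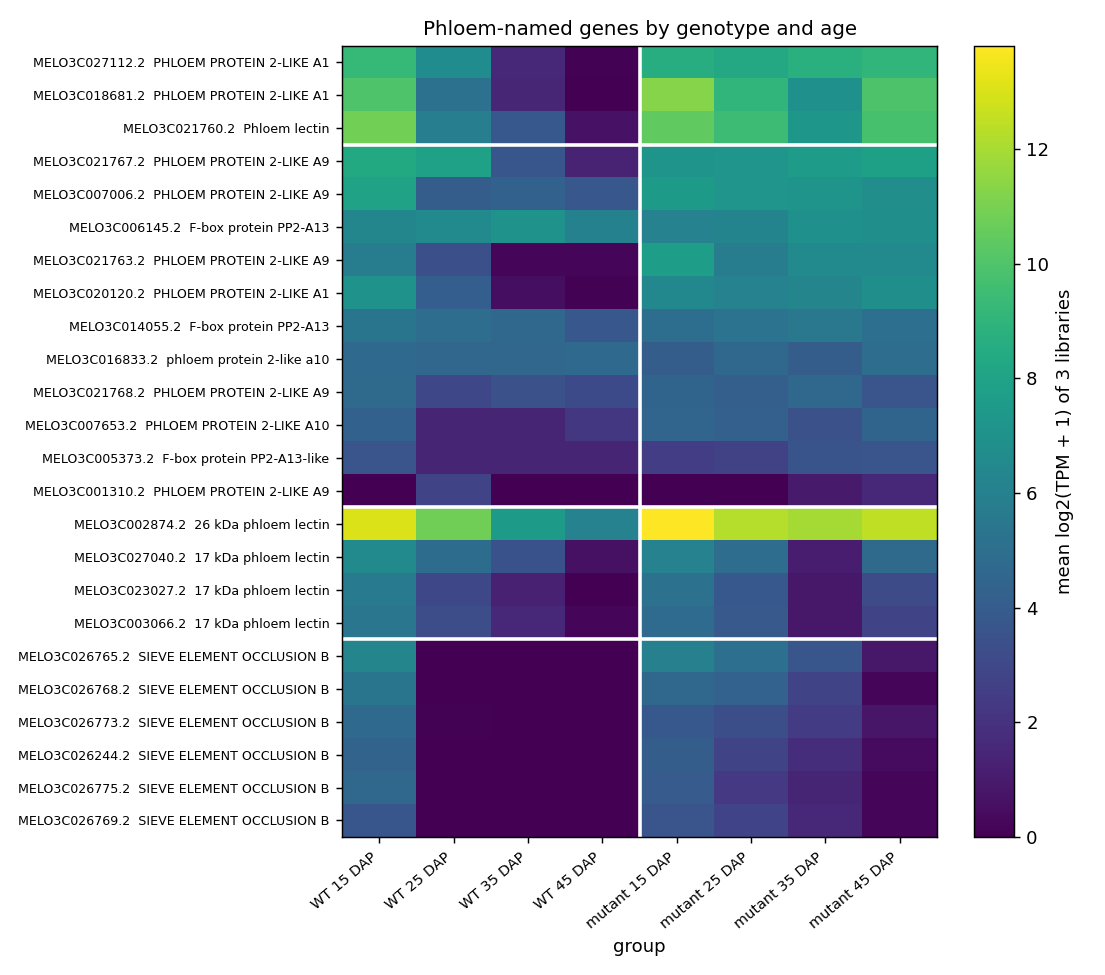
Mean log2(TPM + 1) of 3 libraries for the 3 members (top block) and every other phloem-named gene with a group mean of 10 TPM or more, in columns of genotype and age. The 26 kDa lectin and several PP2-like genes of the second block stay high in the mutant to 45 DAP. The sieve element occlusion genes (bottom block) are highest at 15 DAP in both genotypes and fall with each later age in the mutant. In the mutant at 35 DAP the libraries differed widely, with 12.4, 206 and 43.7 TPM summed over the 10 listed.

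Within the PP2 family, 13 of 16 genes were tested. The mutant was higher for 8 and lower for 1 at 25 DAP (48.6% and 18.3% of all genes). At 35 DAP it was higher for 9 and lower for 1 (41.2% and 23.2%), and the 8 called at 45 DAP were all higher (38.5%, with 22% lower). The remaining PP2-like A1 gene, MELO3C020120.2, was at 136 ± 15.1 TPM in WT at 15 DAP and at 0.17, 0 and 0 TPM in WT at 45 DAP. In the mutant it was at 71.7, 93.6 and 96.6 TPM at 15 DAP and at 98.2, 131 and 119 TPM at 45 DAP. Like MELO3C027112.2 it had no low point in the mutant at 35 DAP, where its libraries held 71.1, 71.9 and 85.6 TPM. Its log2 difference was 2.02, 5.73 and 6.78 (SE 0.24 each) at 25, 35 and 45 DAP in limma's test, with adjusted p-values of 5.5e-07, 5.3e-13 and 9.1e-14, and -0.64 at 15 DAP, which missed the threshold (adjusted p = 0.067).

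The PP2-like A9 genes were not alike. MELO3C021763.2 was higher in the mutant at every age in limma's test, with 205 TPM against 59.7 TPM in WT at 15 DAP (log2 difference 1.90, SE 0.50, adjusted p = 0.013), and 114 TPM against 0.14 TPM at 45 DAP (6.38, adjusted p = 2.7e-09). The call at 15 DAP was lost without WT replicate 1 and with the libraries of that age alone. MELO3C021767.2 kept its level in WT for longer, with 253, 232 and 235 TPM at 25 DAP, and was higher in the mutant only at 35 DAP (3.91, SE 0.48, adjusted p = 9.4e-07) and 45 DAP (6.50, adjusted p = 1.4e-09) by limma. Its mutant libraries lay below those of WT without overlap at 15 DAP (means of 143 against 330 TPM) and 25 DAP (151 against 240 TPM). Neither was called, and 2015 and 3792 of 17658 genes lay below in this way. MELO3C007006.2 kept a level of 7.83 to 24.4 TPM in WT from 25 DAP on and was 2.87 to 3.13 higher in the mutant at the later 3 ages. MELO3C001310.2 was listed at 0 in 20 of the 24 libraries and at 6.92 to 25.2 TPM in the other 4, which fell in 3 groups. It was the 1 phloem-named gene called lower at 25 DAP by limma (log2 difference -2.85, SE 1.10, adjusted p = 0.028), with WT libraries at 17.4, 19.2 and 0 TPM that overlapped the mutant ones, all at 0. This call was lost in 6 of 30 alternatives.

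F-box genes with a PP2 domain, a domain class known from Arabidopsis to join ubiquitin ligases, were not alike either. MELO3C006145.2 (F-box protein PP2-A13) was at 66.4 to 132 TPM in all 8 group means and was not called at any age. MELO3C014055.2, also PP2-A13, was lower in the mutant at 15 DAP by limma (log2 difference -0.38, SE 0.12, adjusted p = 0.029) and higher later, by 0.35 at 25 DAP, 0.96 at 35 DAP and 1.29 at 45 DAP (adjusted p = 1.9e-08). Its calls at 15 and 25 DAP were lost in 6 and 5 of 30 alternatives, each time with the libraries of the age alone and after quantile normalization, and at 25 DAP its direction turned in 1. MELO3C005373.2 (F-box protein PP2-A13-like) was at 11.6 TPM in WT at 15 DAP and 1.72 to 1.80 TPM later. It was lower in the mutant at 15 DAP, at 4.75 TPM (log2 difference -1.15, limma adjusted p = 0.018, a call lost in 2 of 30 alternatives), and higher by 2.20 at 45 DAP (SE 0.32, limma adjusted p = 9.5e-06). The PP2-like A10 gene MELO3C007653.2 was higher in the mutant by 2.83, 2.03 and 2.20 at the later 3 ages, and the PP2-like A9 gene MELO3C021768.2 by 1.21 and 1.18 at 25 and 35 DAP. The calls of MELO3C021768.2 were each lost in 1 of 30 alternatives. Another PP2-like A10 gene, MELO3C016833.2, stood between 15.8 and 29.9 TPM in every group mean and was lower in the mutant at 15 DAP (-0.64) and 35 DAP (-0.50), 2 calls that were each lost in 3 of 30 alternatives.

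The 26 kDa phloem lectin, MELO3C002874.2, was the most abundant phloem-named gene. Its WT libraries held 12733, 6471 and 7921 TPM at 15 DAP and 89.2, 42.2 and 89.1 TPM at 45 DAP. Mutant libraries held 7865, 17793 and 20505 TPM at 15 DAP, 2671, 5368 and 3995 TPM at 35 DAP, and 6431, 4037 and 7403 TPM at 45 DAP. The genotypes overlapped at 15 DAP and stood apart from 25 DAP on, with log2 differences of 1.46, 4.37 and 6.35 (SE 0.42 each) and limma adjusted p-values of 0.0052, 3.75e-08 and 2.9e-10. At 25 DAP the call was lost under median-of-ratios scaling. In the mutant its mean at 35 DAP was 4011 TPM against 5031 TPM at 25 DAP, and its libraries at 35 DAP overlapped those at 25 and at 45 DAP.

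The 3 genes described as 17 kDa phloem lectin had mutant libraries at 35 DAP below those at 25 DAP and 45 DAP, with no overlap. Of all genes tested, 20.4% lay lower in this way from 25 to 35 DAP and 21.7% higher from 35 to 45 DAP. MELO3C027040.2 was at 31.4, 22.1 and 37.1 TPM in the mutant at 25 DAP, at 0.38, 2.24 and 1.17 TPM at 35 DAP and at 27.7, 22.1 and 29.5 TPM at 45 DAP. In WT it was at 11.1, 5.79 and 16.0 TPM at 35 DAP, so the mutant was lower at this age (log2 difference -2.39, SE 0.42, limma adjusted p = 6.0e-05), unlike the members. At 45 DAP it was higher in the mutant by 4.16 (adjusted p = 8.0e-08). MELO3C023027.2 and MELO3C003066.2 stood at 0.37 to 1.53 TPM in the mutant at 35 DAP and at 3.21 to 10.4 TPM at 45 DAP. Both were called higher in the mutant at 45 DAP (38.5% of all genes) and at no other age. The second gene described as Phloem lectin, MELO3C002873.2, was listed at 0 in all 24 libraries.

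Sieve element occlusion genes parted from the members in WT at 25 DAP and in the mutant at 45 DAP. Their summed level was 313, 193 and 181 TPM in WT at 15 DAP and 1.04 to 2.26 TPM in every WT library from 25 DAP on, where the members still summed to 159 to 229 TPM at 25 DAP. In the mutant the sum was 271, 160 and 99.4 TPM at 15 DAP, 168, 72.6 and 70.4 TPM at 25 DAP, 12.4, 206 and 43.7 TPM at 35 DAP, and 5.96, 10.7 and 5.06 TPM at 45 DAP. The 45 DAP libraries lay below all other mutant libraries, while the members summed to 2429, 2239 and 2532 TPM there. The ratio of both sums was 8.91 to 28.4 in the mutant at 25 DAP and 210 to 500 at 45 DAP.

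In limma's test 9 of the 9 sieve element occlusion genes tested were higher in the mutant at 25 DAP (48.6% of all genes), with a median log2 difference of 2.85. At 35 DAP 9 of 9 were higher (41.2% of all genes), with a median of 1.75. The call at 35 DAP leaned on replicate 2 of the mutant: 5 genes were called without it, and 2 with the model fitted to the libraries of that age alone. At 45 DAP 1 of 9 was called (38.5% of all genes higher), with a median of 0.37. Mutant libraries lay above WT libraries without overlap for 9 of 9 there, beside 44.4% of all genes. The occlusion genes with a group mean of 10 TPM or more at any age were near 0 at 45 DAP. Their means were 0 to 0.02 TPM in WT and 0.13 to 0.91 TPM in the mutant. The number called at 45 DAP was 4 with a constant of 0.1 added to TPM, 5 with the libraries of that age alone and 0 after quantile normalization. The most abundant, MELO3C026765.2, was at 100, 68.8 and 67.2 TPM in WT at 15 DAP and listed at 0 in 8 of 9 later WT libraries. In the mutant it was at 61.1, 21.3 and 25.2 TPM at 25 DAP, 0.50, 78.3 and 16.2 TPM at 35 DAP, and 1.07, 1.34 and 0.31 TPM at 45 DAP.

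**Figure D4:**
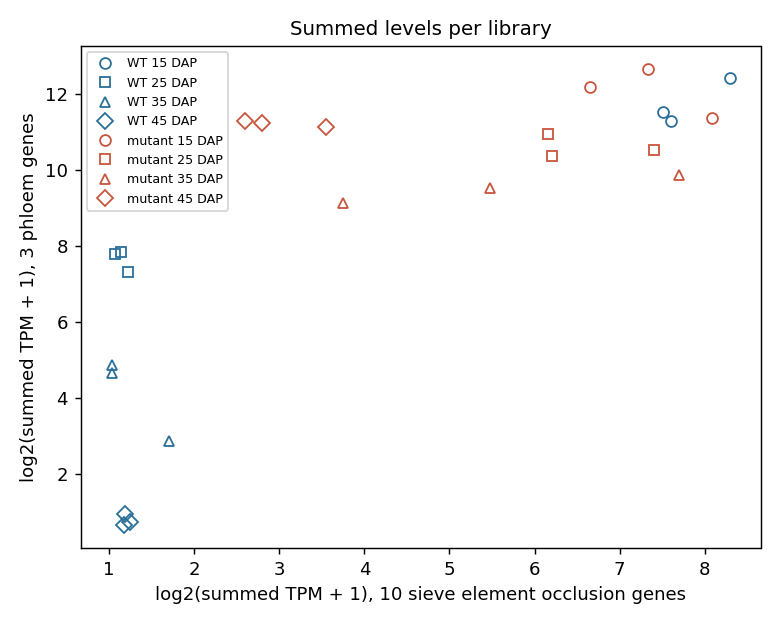
Summed level of the 3 members against that of the 10 sieve element occlusion genes, both as log2(summed TPM + 1), with 1 symbol per library, the age by shape, WT in blue and mutant in red. Mutant libraries at 45 DAP lie at upper left, with members at 2239 to 2532 TPM and occlusion genes at 5.06 to 10.7 TPM, and WT libraries from 25 DAP on lie along the left edge.

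Fruit flesh is a mixture of cells, and from bulk RNA fewer phloem cells and less of these transcripts per cell cannot be told apart. Genes known from Arabidopsis for phloem identity and loading, such as the Myb factor APL, were listed as well, by words of their descriptions. Of these, MELO3C012631.2 and MELO3C028792.2 are also in the list of callose synthases below. Both were higher in the mutant at 25, 35 and 45 DAP in limma's test. Of the 22 identity and loading genes, 19 were tested. At 25, 35 and 45 DAP the mutant was higher for 11, 13 and 12 of them, beside 48.6%, 41.2% and 38.5% of all genes. It was lower for 2, 1 and 1, beside 18.3%, 23.2% and 22%. The medians of the list were 1.02, 1.26 and 1.18. After quantile normalization the counts were 6 and 3, 9 and 4, and 9 and 3, and the medians 0.32, 0.79 and 0.50. Their summed level was 288 to 334 TPM in WT at 15 DAP and 39.5 to 41.1 TPM at 45 DAP, and 280 to 341 TPM and 190 to 220 TPM in the mutant. In WT at 45 DAP the members summed to 0.58 to 0.93 TPM. Of the sum of the list there, 1 APL gene, MELO3C007989.2, held a mean of 17.3 TPM, while another, MELO3C026896.2, stood at 0.80 TPM. Whether this sum follows the amount of phloem was not tested.

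Named in this list by their level were 4 genes described as APL and the SMAX1-LIKE 3 gene. MELO3C026896.2 (APL) stood at 64.8 TPM in WT at 15 DAP and at 0.80 TPM at 45 DAP, against 37.3 and 27.6 TPM in the mutant. Its log2 difference at 45 DAP was 3.98 (SE 0.26, limma adjusted p = 2.1e-10). MELO3C007989.2 (APL) kept 12.1 to 17.3 TPM in WT from 25 DAP on and was higher in the mutant at all 4 ages by limma, by 0.96 to 2.44. MELO3C009523.2 (SMAX1-LIKE 3) was higher in the mutant at 35 and 45 DAP, by 2.97 and 3.13.

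Callose synthases make the glucan that narrows sieve pores and plasmodesmata, and 11 of 15 were tested. The mutant was higher for 7 and lower for 2 at 25 DAP (48.6% and 18.3% of all genes). At 35 DAP it was higher for 8 and lower for 3 (41.2% and 23.2%), and the 8 called at 45 DAP were all higher (38.5%, with 22% lower). After quantile normalization the counts were 4 and 3, 5 and 3, and 6 and 2. The largest difference among the 5 most abundant was that of MELO3C023509.2 (callose synthase 1) at 25 DAP, with 204 TPM in the mutant and 11.9 TPM in WT (log2 difference 3.97, SE 0.28, limma adjusted p = 5.3e-10). MELO3C023512.2, also callose synthase 1, was at 41.9 to 122 TPM in the WT group means and 77.6 to 134 TPM in those of the mutant. MELO3C015661.2 (callose synthase 3) was higher in the mutant at all 4 ages by limma, by 0.67 to 1.46. The others of these 5 were called lower, MELO3C015654.2 at 25 DAP (-0.39) and 35 DAP (-0.65) and MELO3C026219.2 at 35 DAP (-0.55).

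Protease inhibitors of the cystatin and serpin kinds, which occur in cucurbit phloem exudate, were far more abundant than the members as a sum. Of 38 listed, 31 were tested. At 25, 35 and 45 DAP the mutant was higher for 19, 22 and 23, beside 48.6%, 41.2% and 38.5% of all genes. It was lower for 2, 4 and 5, beside 18.3%, 23.2% and 22%. The medians of the list were 1.62, 2.69 and 3.98. In WT at 15 DAP the sums were 42484, 20652 and 23492 TPM, of which the members' sum was 13.0%, 12.1% and 12.7%, and in the mutant at 15 DAP they were 25273, 59064 and 56926 TPM. The WT sums then lay between 3182 and 4461 TPM at 25 DAP, 1291 and 1684 TPM at 35 DAP and 1047 and 1249 TPM at 45 DAP. The members' share of them in WT was 4.99% to 5.62% at the first of these ages, 1.45%, 0.492% and 2.0% in the libraries of the next, and 0.0487% to 0.0745% at the last. At 15 DAP WT replicate 1 was the highest and mutant replicate 1 the lowest of its group both for the inhibitors and for the summed members. In the mutant at 35 DAP the sums were 7566, 18563 and 11826 TPM, and at 45 DAP 23538, 17747 and 28366 TPM.

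Like the members other than MELO3C027112.2, MELO3C012701.2, the most abundant inhibitor, had its lowest mutant level at 35 DAP, with 1897, 4480 and 2964 TPM, and 6541, 4991 and 7278 TPM at 45 DAP. Its log2 difference between genotypes in limma's test was 2.23, 3.82 and 7.32 (SE 0.36 each) at 25, 35 and 45 DAP, the last with an adjusted p of 5.5e-12. MELO3C018579.2, another cysteine proteinase inhibitor, stood at 2.80 TPM in WT and 4505 TPM in the mutant at 45 DAP (10.31, SE 0.51, adjusted p = 5.8e-12). MELO3C008183.2 was called at 15 DAP, unlike the other 4 of the 5 most abundant, at 448 TPM in WT and 3396 TPM in the mutant (2.55, SE 0.71, limma adjusted p = 0.018), with mutant replicate 1 at 604 TPM inside the WT range of 297 to 747 TPM. This call was lost in 5 of 30 alternatives, with the libraries of 15 DAP alone and also when any of replicates 2 and 3 of either genotype was left out. In the mutant at 35 DAP replicate 1 was the lowest of its group, and replicate 2 the highest, both for the inhibitors' sum and for the members' sum.

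**Figure D5:**
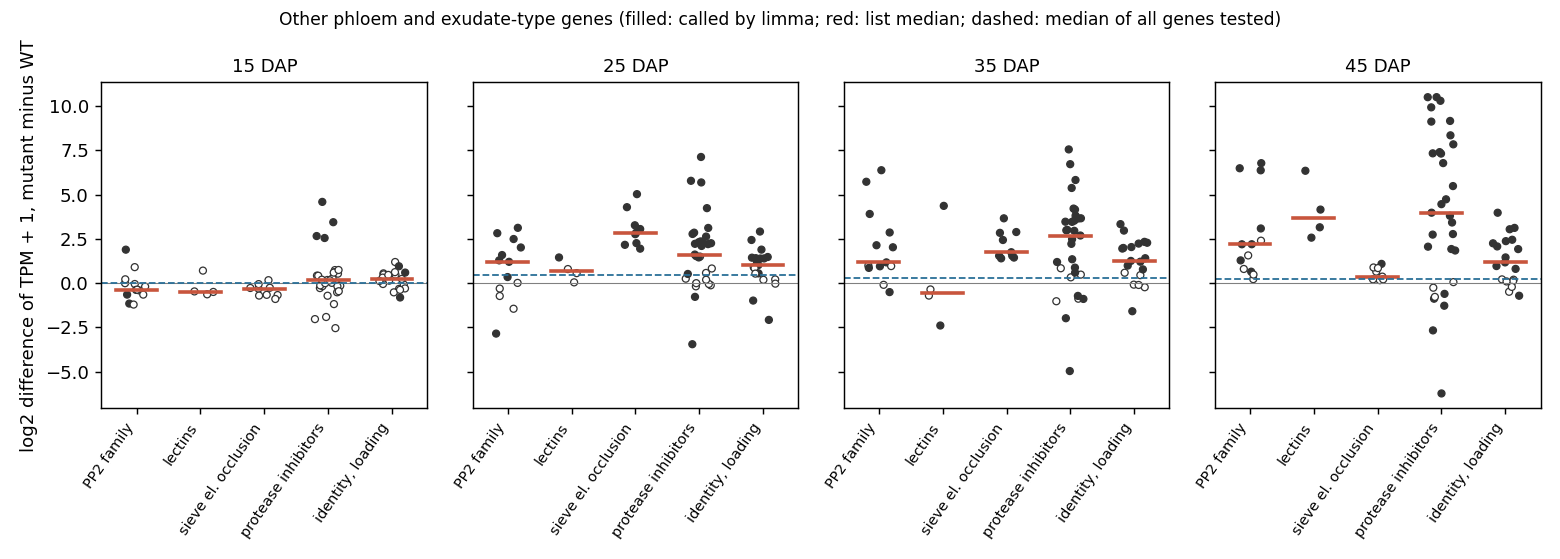
Log2 difference of TPM + 1, mutant minus WT, of each tested gene of 5 lists at 4 ages; filled points were called by limma, red bars are list medians and the dashed line is the median of all genes tested. List medians lie between -0.48 and 0.24 at 15 DAP, and at 45 DAP they are 2.20 for the PP2 family, 3.66 for the lectins, 0.37 for sieve element occlusion, 3.98 for protease inhibitors and 1.18 for identity and loading.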

How the data were processed

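RNA from the fruit flesh of WT and cmnac-nor melon was sequenced in 24 libraries. Per the submitters' processing notes, the tools were TopHat2, HISAT2, StringTie and Cufflinks; versions and annotation are not stated, and the build is not given in the sources used here. The deposited values were read as TPM made by the authors, from the values alone, since no header or label names the unit. Column names match the sample titles. Of the identifiers, 0 matched the reference gene table, so no sequence or coordinate is given.

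Members and lists were chosen with earlier results of these data known. Genes at 1 TPM or more in 3 or more libraries (17658 of 29980, all 3 members among them) were tested with limma 3.58.1 in R 4.3.3 (limma-trend, two-sided, 8 group means, all 24 libraries, log2(TPM + 1), Benjamini-Hochberg adjusted p under 0.05). The fit was tested on simulated data. Named genes were, for each member, the 5 most correlated genes over libraries and the 3 in deviations from group means, the 5 most abundant genes of each list, and each phloem-named gene with a group mean of 10 TPM or more. The alternatives were a constant of 0.1, median-of-ratios scaling, quantile normalization, no filter, the libraries of an age alone, a replicate block, each library left out and, for correlations, Spearman's rho and each group left out. TPM hold no depth, so count models were not used.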

Additional observations from a re-analysis of the deposited data

Results flagged for a closer look

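In 5 genes, MELO3C018681.2 among them, the libraries moved apart late: all 3 mutant libraries were higher at 45 than at 35 DAP and all 3 WT libraries lower, with no overlap between ages. Only the members and the phloem-named genes were looked through for this, so the share of other genes with both steps is not given. Each step alone was common: 21.7% of genes tested lay higher without overlap in the mutant, and 17.8% lower in WT. The members among the 5 were chosen for their levels, so nothing is read from this count. The difference of the log2 steps, mutant minus WT, was 4.45 for MELO3C018681.2 (steps of -1.47 in WT and 2.98 in the mutant) and 5.58 for the phloem lectin MELO3C021760.2 (-3.12 and 2.46). For the 17 kDa phloem lectins it was 6.55 for MELO3C027040.2, 3.51 for MELO3C023027.2 and 3.27 for MELO3C003066.2. From 25 to 35 DAP the F-box gene MELO3C014055.2 did the same, with a difference of 0.61 (-0.34 and 0.27). None of these 6 differences was tested, and replicate numbers do not pair the libraries.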

How the results depend on the processing

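Of 270 comparisons of a main result with an alternative, 245 kept direction and size, 24 moved and 1 reversed, and among those for single lists 476 kept and 52 moved. The reversal was the lectin MELO3C021760.2 at 15 DAP, 0.18 without mutant replicate 1 (range -0.80 to 0.18 over left-out libraries). With a constant of 0.1 the log2 difference of MELO3C027112.2 was 7.82 at 35 DAP and 11.73 at 45 DAP, that of MELO3C018681.2 12.97 and that of the lectin 10.26 at 45 DAP, which is the constant's own effect on levels near 0. After median-of-ratios scaling MELO3C018681.2 was at 3.43 at 25 DAP and 9.76 at 45 DAP, and after quantile normalization at 10.02, with MELO3C027112.2 at 8.78. Fitted to the libraries of the age alone, 695 genes (293 higher, 402 lower) were called at 15 DAP in place of 3232, and 1 of the phloem-named genes in place of 4, while 13 in place of 21 were called at 35 DAP; the cause was not tested. Leaving out 1 library gave 2089 to 3556 genes and 1 to 4 phloem-named genes at 15 DAP, the lowest of each without mutant replicate 2. The phloem-named count was 2 without WT replicate 1 or 3. Spearman's rho was 0.936 for MELO3C018681.2 with the lectin, 0.776 for both PP2-like A1 genes and 0.851 for MELO3C027112.2 with the lectin. Without WT at 35 DAP, r was 0.987 for the first pair, and in deviations 0.219 for the last. Without WT at 45 DAP the 2 pairs with MELO3C027112.2 gave 0.887 (with MELO3C018681.2) and 0.849, and without mutant at 35 DAP 0.962 and 0.958.

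Replicate numbers did not pair the libraries: over 12 same-numbered pairs the correlation of deviations was -0.31 to 0.06, with 0 pairs over 0.1. With a replicate block 3072 genes were called at 15 DAP and 4, 19, 21 and 13 phloem-named genes in order of age, as many as without it for the latter.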

Other observations

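Lectins outside the phloem families were also examined: of 15 tested of 22 listed, the mutant was higher for 3, 9, 8 and 5 in order of age and lower for 1, 3, 3 and 4. Over all genes tested 10.3%, 48.6%, 41.2% and 38.5% were higher, and 7.99%, 18.3%, 23.2% and 22% were lower. With 1 library left out, 3 to 6 lectins were called at 15 DAP, and 1 with the libraries of that age alone. The median r over the libraries with the members was 0.366 to 0.389. The list was made by words and may hold names that are no lectins. The amaranthin-like lectin MELO3C022430.2 was higher in the mutant at all 4 ages in limma's test, by 3.37 to 3.84, with 62.4 TPM against 1.74 TPM at 15 DAP, where the call was lost with the libraries of that age alone. The jacalin-related lectin MELO3C003823.2 went the other way, with 58.1 TPM in WT and 5.51 TPM in the mutant at 25 DAP (log2 difference -3.20, SE 0.39, limma adjusted p = 9.5e-07).

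Of the xylem genes, 7 of 15 were tested, and the 5 most abundant were laccases, which take part in lignin formation. In the mutant 4 were higher at 25 DAP, beside 48.6% of all genes, and 2 to 5 were called with 1 library left out. The single call at 45 DAP, MELO3C009189.2, which was lower in the mutant, was lost in 14 of 30 alternatives. The laccase MELO3C003228.2 was at 16.7 TPM in WT at 15 DAP and 0.12 to 0.23 TPM later, and at 7.84 TPM in the mutant at 25 DAP (2.68, SE 0.47, limma adjusted p = 6.2e-05).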
